A study of Mesocricetus auratus with 8 samples.

Results

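The 10 genes described here encode the troponins and tropomyosins, the calcium-sensing switch of the muscle thin filament: Tnnt1, Tnnt2 and Tnnt3 (troponin T), Tnni1 and Tnni2 (troponin I), Tnnc1 and Tnnc2 (troponin C), and Tpm1, Tpm2 and Tpm3 (tropomyosin). They were chosen by gene symbol, and all 10 were found among the 17590 genes with values in the deposited table. In striated muscle, tropomyosin lies along the actin filament and covers the sites to which myosin binds. Troponin C binds calcium, troponin I holds the filament switched off, and troponin T ties both to tropomyosin. For troponin T and troponin I, slow fibers, fast fibers and the heart use different genes, whereas slow fibers and the heart share the troponin C gene Tnnc1. Embryonic skeletal muscle also uses genes best known from the heart. Tropomyosin genes are not confined to muscle, since alternative promoters and splicing give shorter forms found in the cytoskeleton of most cells.

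RNA was sequenced from wild-type satellite cells (SCs), the stem cells of skeletal muscle, which were isolated from the hindlimbs of sexually mature male Syrian hamsters by preplating and cultured as primary cells. In both groups SCs were kept at 37°C for 48 h in growth medium and then for 24 h at 37°C in growth medium with 100 mM HEPES. Control libraries (n = 4) were made at that point, and cold libraries (n = 4) were made after a further 24 h at 4°C, so cold and the later time of collection cannot be told apart. The treatment labels of control replicates 1 to 4 give 3, 4, 5 and 6 days at 37°C, whereas their titles all give day 3. The study calls its replicates biological, but neither the labels nor the methods say whether they came from separate animals or cultures. The p-values of fits that ignore the replicate number therefore measure the spread between these libraries. Those of fits that take the number into account measure the spread left once differences between numbers are removed.

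Each library held between 16530747 and 18533801 expected counts. The satellite cell and myoblast markers summed to 1860 to 2257 TPM in control and 1781 to 2085 TPM in cold libraries. TPM is a level per transcript, corrected for transcript length and library size. Most of this sum came from Des and Myod1, whereas Pax7 was at 10.8 to 16.1 TPM and Chrdl2 at 0.05 to 1.04 TPM. The differentiating myocyte markers (Myog, Mymk, Mymx, Ckm, Myh3) moved with the groups, from 1108 to 2148 TPM in control and from 660 to 1139 TPM in cold libraries. Fibroblast markers summed to 1217 to 1739 TPM and 1201 to 1687 TPM, and smooth muscle and pericyte markers, mostly Acta2, to 1200 to 2030 TPM in control and 1037 to 1337 TPM in cold libraries. The 4 macrophage and leukocyte markers with values summed to 25.9 to 54.2 TPM and 26.4 to 55.7 TPM, mostly from Cd68 (23.3 to 52.0 TPM), with Csf1r at 2.31 to 4.55 TPM and with Ptprc and Adgre1 under 1 TPM in every library. The first principal component (54.5% of the variance) placed replicates 1 and 2 apart from replicates 3 and 4, whether control or cold. Marker sums differed between these sides too. The mean was 2123 against 1898 TPM for satellite cell and myoblast markers, and 1600 against 926 TPM for myocyte markers. For fibroblast markers it was 1237 against 1598 TPM. For smooth muscle and pericyte markers it was 1622 against 1169 TPM, and for macrophage and leukocyte markers 27.9 against 50.5 TPM. These sums follow their most abundant genes, and single markers ran against them in the mean of the sides. These were Myf5, Pax7 and Cdh2 in the satellite cell and myoblast list and Mymx in the myocyte list. Others were Col1a1 and Col1a2 in the fibroblast list, and Pdgfrb, Myh11 and Rgs5 in the smooth muscle and pericyte list. Ptprc and Adgre1, both near 0, did so in the macrophage and leukocyte list. The part of these differences in the results below was not tested, and in bulk RNA fewer cells of a type and less RNA per cell cannot be told apart.

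Mean TPM was lower in cold than in control SCs for the 7 troponins, Tpm1 and Tpm2 and higher for Tpm3, but the groups overlapped for 5 of the 10 genes. In TPM, 9 of the 10 genes were lower in the cold than in the control library with the same number in 4 of 4 numbers, against 10.5% of the 12506 genes tested, and Tpm3 was higher in 4 of 4, against 12.8%. The groups did not overlap at all for 4 lower genes, Tnnt1, Tnni1, Tnnc2 and Tpm2 (background 2.41%), or for Tpm3 (background 2.27%). For each of these 5 genes the exact two-sided permutation test over 70 arrangements gave p = 0.0286, the smallest value that 4 libraries against 4 allow. For the other 5 genes p lay between 0.0857 (Tnnt2) and 0.371 (Tnni2) in the same exact test.

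**Figure D1:**
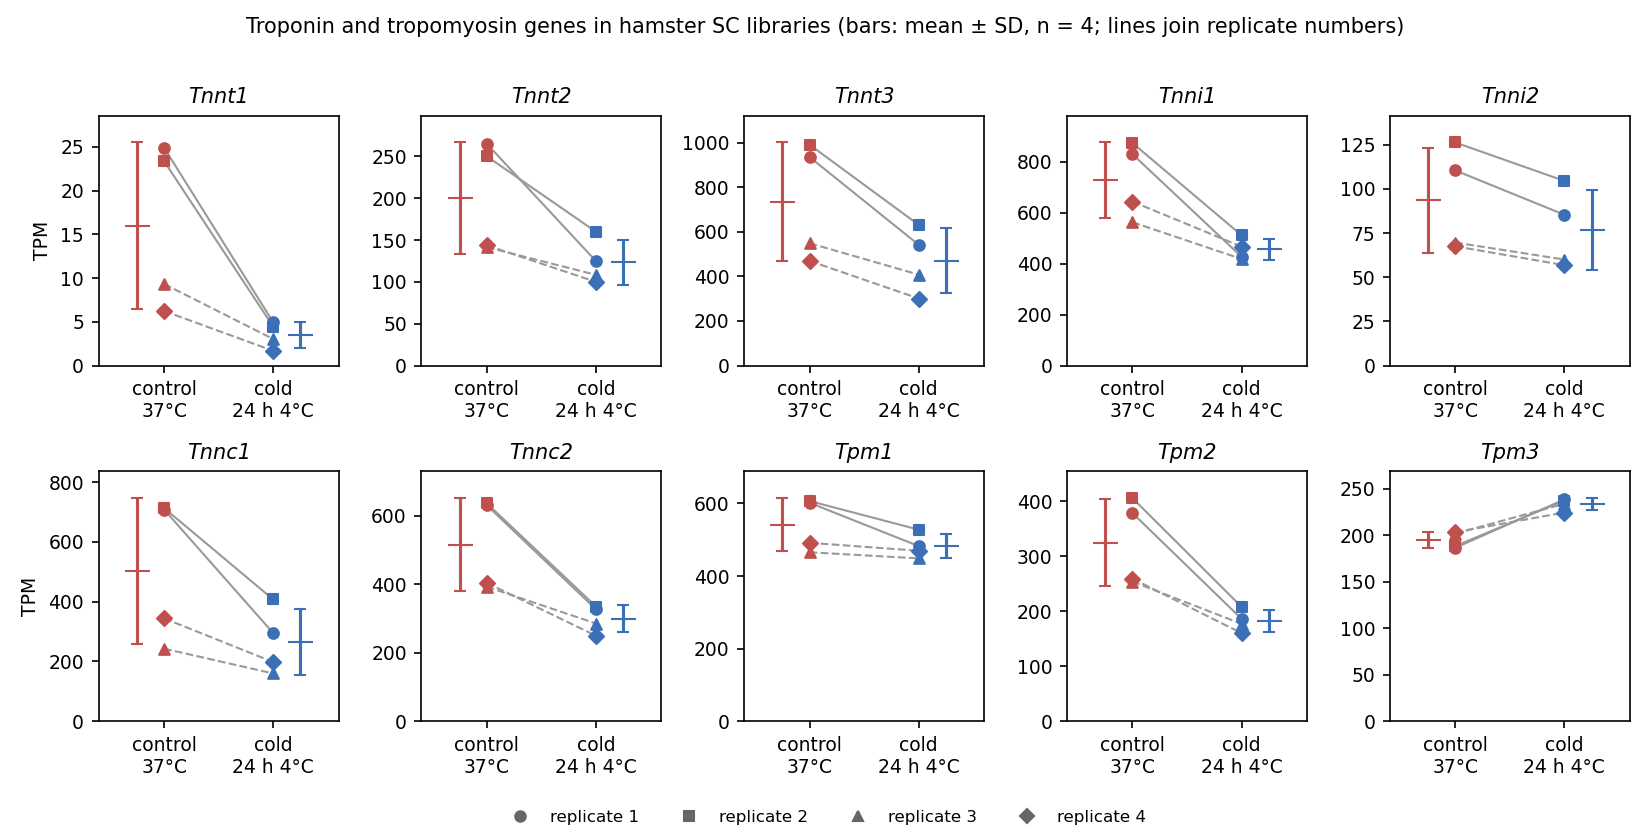
TPM (y axis, linear, from 0) of each of the 10 genes in the 4 control (red, 37°C) and 4 cold (blue, 24 h at 4°C) libraries. Symbols mark replicate numbers, grey lines join libraries of one number (solid for 1 and 2, dashed for 3 and 4), and side bars give mean ± SD. Lines slope down in every panel except Tpm3, and control replicates 1 and 2 lie above 3 and 4 in all of the others.

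The expected counts were tested with edgeR's quasi-likelihood test, with calls made where expression changed by at least 1 log2 unit and the p adjusted by Benjamini-Hochberg over all 12506 genes was under 0.05. All 10 genes passed the filter on low counts. Without a block for the replicate number, 0 of the 10 were called (background 0.04% lower, 0% higher), and 0 had an adjusted p under 0.05 at any fold (background 0.072% lower, 0% higher). At an unadjusted p under 0.05, 6 were lower (background 4.13%) and 1 was higher (background 2.57%). DESeq2 called Tnnt1 lower (background 0.528%) and, without the fold threshold, gave an adjusted p under 0.05 to Tnnt1, Tnni1, Tnnc2 and Tpm2 on the lower side (background 1.1%) and to Tpm3 on the higher side (background 0.04%).

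Libraries with the same replicate number deviated together from their group means, so a second edgeR fit took the number as a block. In that fit Tnnt1 was again the single call past both thresholds (background 0.808%). Without the fold threshold, 8 of 10 genes fell (background 4.07%), which are all 7 troponins and Tpm2, and Tpm3 rose (background 1.26%). Tpm1 alone had an adjusted p above 0.05, at 0.0622. In blocked fits that left out both libraries of number 1, 2 or 3, Tpm3 had an adjusted p above 0.05. The 8 lower genes kept theirs below it in those fits. The median log2 fold change of the 10 genes was −0.71 without and −0.68 with the block, beside 0.0071 and 0.0075 for all genes tested.

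**Figure D2:**
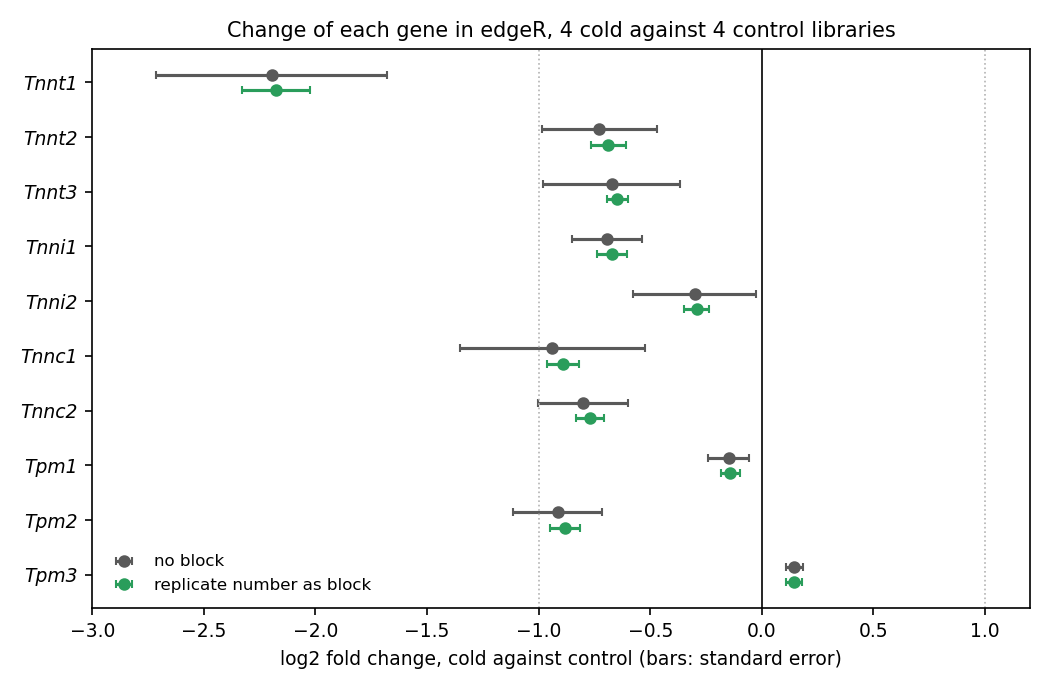
Log2 fold change of cold against control (x axis) for each gene, from edgeR without a block (grey) and with the replicate number as a block (green). Bars are standard errors and dotted lines mark log2 fold changes of −1 and 1. The points of both fits nearly coincide while the bars are shorter with the block for all 10 genes, and Tnnt1 alone lies beyond −1.

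Among the troponin T genes, which link the complex to tropomyosin, the slow skeletal gene Tnnt1 (NCBI Gene 101831173) had the largest fold and the lowest level. Its TPM was 24.9, 23.4, 9.32 and 6.23 in control replicates 1 to 4 and 4.95, 4.45, 3.03 and 1.68 in cold replicates 1 to 4. The highest cold library thus lay below the lowest control library. The means were 15.95 ± 9.55 and 3.53 ± 1.48 TPM (SD, n = 4 each), with a log2 fold change of −2.20 ± 0.52 (SE; edgeR adjusted p = 0.246) without and −2.18 ± 0.15 (SE; adjusted p = 1.28e-08) with the block. Its values rest on 53 to 206 expected counts per control and 14 to 44 per cold library, by far the fewest of the 10 genes, since the other 9 had 355 to 9959. This gene is among those that the study singled out on these libraries, so its call is not independent evidence.

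Tnnt3, the fast skeletal gene, supplied most of the troponin T transcripts. It was at 936, 992, 549 and 470 TPM in the control and 542, 632, 408 and 301 TPM in the cold libraries. Cold replicate 2 exceeded control replicates 3 and 4, so the groups overlapped although each number was lower in the cold. Its log2 fold change was −0.67 ± 0.31 (SE; edgeR adjusted p = 0.766), or −0.65 ± 0.05 (SE; adjusted p = 2.57e-08) with the block. Tnnt2, the cardiac gene, which developing skeletal muscle also uses, had a mean of 199.96 ± 66.6 TPM in control (SD, n = 4) and of 123 ± 26.5 TPM in cold libraries (SD, n = 4), with a log2 fold change of −0.73 ± 0.26 (SE; edgeR adjusted p = 0.581, and 7.47e-06 with the block).

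Troponin I, the inhibitory subunit, came mostly from the slow gene Tnni1. It was at 829, 873, 562 and 643 TPM in the control and 427, 511, 418 and 467 TPM in the cold libraries, with no overlap. The cold values lay close together (456 ± 42.6 TPM, SD, n = 4) compared with the control values (727 ± 148 TPM, SD, n = 4). For Tnni1 the log2 fold change was −0.69 ± 0.16 (SE; edgeR adjusted p = 0.224, and 1.32e-06 with the block). The fast gene Tnni2 had the smallest change of the troponins, with means of 93.5 ± 29.5 and 76.7 ± 22.6 TPM (SD, n = 4 each) and a fold change on the log2 scale of −0.30 ± 0.28 (SE; edgeR adjusted p = 0.999, and 0.00327 with the block). Cold replicate 2, at 105 TPM, exceeded control replicates 3 and 4, at 69.7 and 67.5 TPM. The cardiac gene Tnni3, which is not one of the 10, had at most 5 counts in any library and failed the filter on low counts. It was tested only in fits with a looser filter, where edgeR gave a log2 fold change of −0.54 (adjusted p = 0.958).

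Both genes of troponin C, the calcium-binding subunit, were present at like levels in control libraries. Tnnc1, used in slow fibers and in the heart, was at 709, 714, 243 and 344 TPM in the control and 295, 408, 160 and 198 TPM in the cold libraries. Relative to its mean, it varied more between replicates of one group than any other gene of the 10 except Tnnt1, and its groups overlapped. Tnnc2, the fast skeletal gene, was at 631, 636, 393 and 404 TPM in the control and 327, 335, 285 and 250 TPM in the cold libraries, without overlap. The log2 fold changes were −0.94 ± 0.41 (SE; edgeR adjusted p = 0.732) for Tnnc1 and −0.80 ± 0.20 (SE; edgeR adjusted p = 0.281) for Tnnc2. With the block they were −0.89 and −0.77, with edgeR adjusted p-values of 7.57e-08 and 9.92e-08.

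The tropomyosin genes did not move together. Tpm2, which muscle of both fiber types and smooth muscle use, was at 379, 406, 254 and 259 TPM in the control and 186, 208, 177 and 160 TPM in the cold libraries. All cold values lay under all control values, and the log2 fold change was −0.92 ± 0.20 (SE; edgeR adjusted p = 0.183, and 3.81e-08 with the block). Tpm1, whose products include the main tropomyosin of fast fibers and heart, was at 602, 607, 465 and 492 TPM in the control and 482, 528, 449 and 470 TPM in the cold libraries. Its groups overlapped, and its log2 fold change of −0.15 ± 0.09 (SE; edgeR adjusted p = 0.918) was the smallest in size of the 9 lower genes.

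Tpm3, which gives the slow-fiber tropomyosin and also a widely expressed cytoskeletal form, was at 186, 188, 202 and 203 TPM in the control and 238, 237, 234 and 224 TPM in the cold libraries. Its 8 values fell into separate groups with little spread within each (194.7 ± 8.76 and 233 ± 6.39 TPM, SD, n = 4 each). On expected counts the log2 fold change was 0.15 ± 0.04 (SE; edgeR adjusted p = 0.306, and 0.0189 with the block), whereas the log2 ratio of mean TPM was 0.26. Without number 1, 2 or 3, the blocked edgeR fit gave Tpm3 adjusted p-values of 0.121, 0.139 and 0.0982. Tpm4, a non-muscle tropomyosin outside the 10 genes, had the highest level of the family (1441 ± 205 and 1548 ± 112 TPM, SD, n = 4 each) and a log2 fold change of 0.09 ± 0.08 (SE; edgeR adjusted p = 0.999, and 0.120 with the block). It was higher in the cold in 4 of 4 numbers. The summed TPM of Tpm1 to Tpm4 was 2501 ± 63.1 in control and 2446 ± 69.2 in cold SCs (SD, n = 4 each), lower in 4 of 4 numbers, while the sum of Tpm1 to Tpm3 went from 1060 ± 143 to 898 ± 55.2 TPM.

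In control libraries Tnnt3 (737 TPM) and Tnni1 (727 TPM) led the 10 genes, followed by Tpm1 (541), Tnnc2 (516) and Tnnc1 (502), then Tpm2 (324), Tnnt2 (199.96), Tpm3 (194.7), Tnni2 (93.5) and Tnnt1 (15.95 TPM). The ranges of neighbors in this order overlapped down to Tpm3, and only the steps from Tpm3 to Tnni2 and from Tnni2 to Tnnt1 were free of overlap. In cold libraries Tpm1 (482 TPM), Tnnt3 (471) and Tnni1 (456 TPM) had overlapping ranges at the top, and Tpm3 had moved above Tpm2 and Tnnt2. Tpm3 exceeded Tpm2 in the cold without overlap of the ranges.

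The same split between replicates ran through most of the genes. For the 9 lower genes, the mean TPM of control replicates 1 and 2 was 1.26-fold (Tpm1) to 3.10-fold (Tnnt1) that of control replicates 3 and 4, and in the cold this ratio was between 1.06 (Tnni1) and 1.996 (Tnnt1). Tpm3 did not share it, with ratios of 0.925 in control and 1.04 in cold libraries. Fitted on replicates 1 and 2 alone or on replicates 3 and 4 alone, all 10 genes kept the sign of their fold change, and all 10 changes were larger in size in replicates 1 and 2. Tpm2, for example, had a log2 fold change of −1.11 on the first side and −0.66 on the second, Tnni1 −0.91 and −0.44, and Tpm1 −0.26 and −0.04. Whether the sides differed in their response to cold was not tested. With replicates 1 and 2 alone, 3 of the 10 genes passed both edgeR thresholds (background 1.41%), and with replicates 3 and 4 alone 0 did (background 0.214%). On that second side 3 genes, Tnnt2, Tnnc2 and Tpm2, had an edgeR adjusted p under 0.05 (background 0.381%) and 8 were lower at an unadjusted p under 0.05 (background 3.35%).

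To compare slow, cardiac and fast isoforms directly, the log2 ratio of TPM was taken within each library for 6 pairs and compared between groups by an exact two-sided permutation test, adjusted over the 6 pairs. Slow troponin T was lower than fast troponin T in every library and more so in the cold. The Tnnt1 over Tnnt3 log2 ratio was −5.23, −5.40, −5.87 and −6.21 in the control and −6.75, −7.12, −7.03 and −7.40 in the cold libraries, so that the groups did not overlap. The difference was −1.40 (exact permutation p = 0.0286, adjusted 0.0571), and it was lower in 4 of 4 numbers. Tnnt1 made up 1.55 ± 0.470% of the summed troponin T TPM in control and 0.574 ± 0.131% in cold libraries (SD, n = 4 each).

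The mean ratio of the cardiac to the fast troponin T gene was similar in the groups. Tnnt2 over Tnnt3 differed by −0.03 between the groups (exact permutation p = 0.857, adjusted 0.857), with within-number differences of −0.30, 0.01, 0.04 and 0.12. Tnnt3 supplied 77.3 ± 1.37% of troponin T TPM in control and 78.3 ± 2.55% in cold libraries (SD, n = 4 each). For troponin I, slow over fast (Tnni1 over Tnni2) was lower in the cold in 4 of 4 numbers by 0.59, 0.50, 0.21 and 0.22 log2 units. The groups overlapped (difference −0.38, exact permutation p = 0.200, adjusted 0.300), and Tnni1 went from 88.8 ± 1.33% to 85.7 ± 3.04% of troponin I TPM (SD, n = 4 each). For troponin C, slow over fast (Tnnc1 over Tnnc2) differed by −0.11 (exact permutation p = 0.771, adjusted 0.857), less than its SD of 0.41 among control libraries.

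Among the tropomyosins the ratios moved in opposite directions. Tpm2 over Tpm1 was −0.67, −0.58, −0.87 and −0.92 in the control and −1.37, −1.34, −1.34 and −1.55 in the cold libraries, a difference of −0.64 (exact permutation p = 0.0286, adjusted 0.0571). Tpm3 over Tpm1 was −1.69, −1.69, −1.21 and −1.28 in the control and −1.02, −1.15, −0.94 and −1.07 in the cold libraries, a difference of 0.42 (exact permutation p = 0.0286, adjusted 0.0571). Neither pair of groups overlapped in TPM. On expected counts scaled by library, the groups stayed apart for Tpm2 over Tpm1 (difference −0.73, exact permutation p = 0.0286) but overlapped for Tpm3 over Tpm1 (difference 0.29, exact permutation p = 0.0571). As shares of the summed TPM of Tpm1 to Tpm3, Tpm2 went from 30.3 ± 3.37% to 20.3 ± 1.11% and Tpm3 from 18.7 ± 3.34% to 26.02 ± 1.18%, while Tpm1 was at 51.0 ± 0.589% and 53.7 ± 1.22% (SD, n = 4 each).

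**Figure D3:**
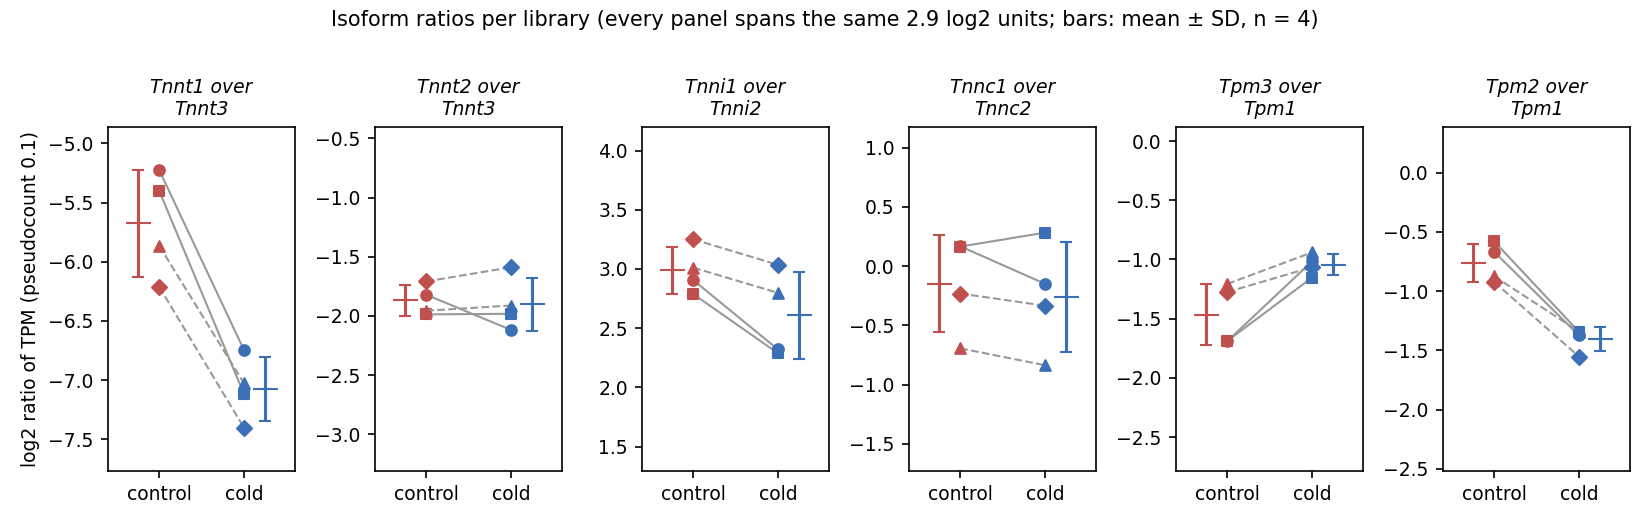
Log2 ratio of TPM (y axis, pseudocount 0.1) for 6 isoform pairs in each control (red) and cold (blue) library, with lines joining replicate numbers (solid for 1 and 2, dashed for 3 and 4) and side bars for mean ± SD. Every panel spans the same number of log2 units. Control and cold points are separate for Tnnt1 over Tnnt3, Tpm3 over Tpm1 and Tpm2 over Tpm1, and overlap for the other 3 pairs.

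The table has 1 value per gene and library and cannot show splice forms, but in programs that estimate transcript abundance, expected count divided by TPM scales with the mean effective length of a gene's transcripts. The counting program is not given in the sources used here, so reading the quotient as an implied length is an assumption. This quotient was scaled within each library by 1641 genes with a single RefSeq transcript and is given as a percentage of each gene's control mean. It was examined after the levels had been seen. The 3 tropomyosin genes of the set varied far more than the troponins. The range over the 8 libraries was 8.72% for Tpm1, 9.14% for Tpm2 and 13.5% for Tpm3, wider than in 98.3%, 98.4% and 99.4% of 3920 genes with at least 1000 counts on average. The troponin genes had ranges of 0.795% (Tnnt2) to 2.62% (Tnnc1), and Tnni2 and Tnnc2, with a single RefSeq transcript each, had 2.32% and 2.52%. The median gene had a range of 0.520%, and Tpm4 one of 0.0558%. RefSeq lists 21 transcripts for Tpm1, 14 for Tpm3, 13 for Tnnt3, 7 for Tnnt2 and 5 for Tpm2.

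Tpm3 had an implied length of 99.2, 99.5, 99.1 and 102% of its control mean in the control and 91.0, 90.1, 95.2 and 97.4% in the cold libraries. The cold values were all lower (93.4 ± 3.46%, SD, n = 4; exact permutation p = 0.0286), while 1.05% of the 3920 genes had a cold group wholly under the control group. Tpm2 was lower in 4 of 4 numbers (96.1 ± 2.16% in the cold, SD, n = 4), but its groups overlapped (exact permutation p = 0.0857). Tpm1 was higher in 4 of 4 numbers, at 96.4, 96.5, 103 and 104.5% in the control and 102, 99.1, 104 and 105% in the cold libraries (exact permutation p = 0.314). For Tpm1 the split between replicates 1 and 2 and replicates 3 and 4 within the control group was wider than any difference within a replicate number. The expected counts of the 10 genes were whole numbers in all 8 libraries.

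**Figure D4:**
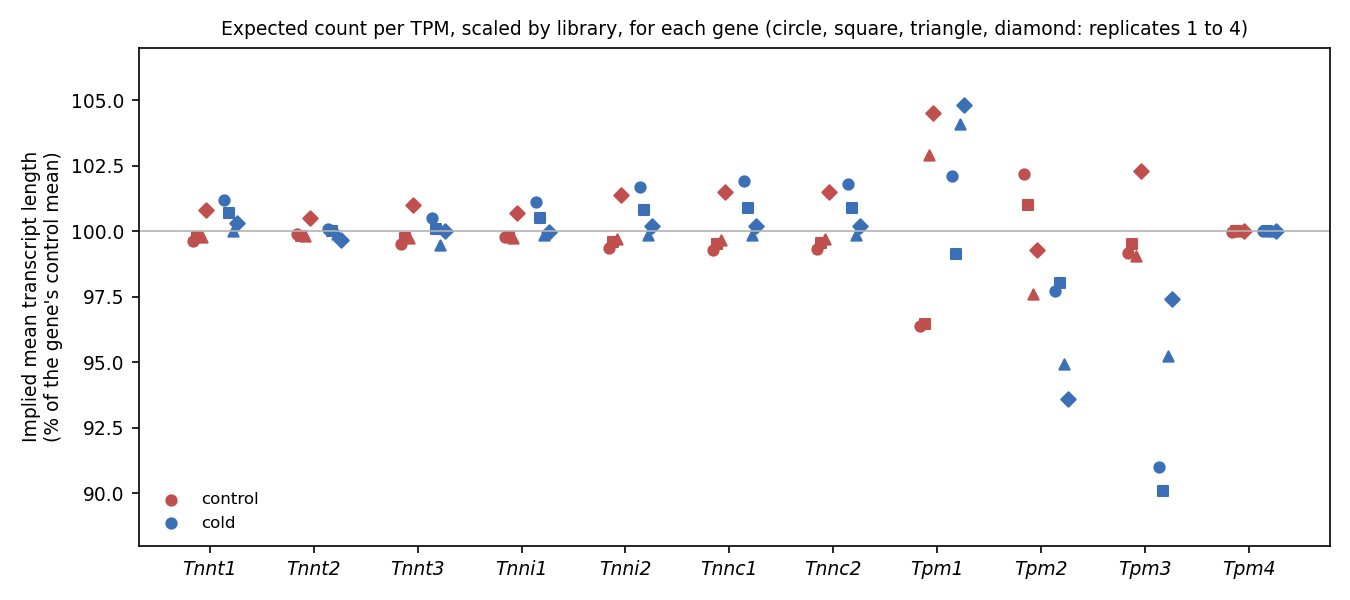
Expected count per TPM, scaled by library and given as a percentage of the gene's control mean (y axis, not from 0), for the 10 genes and Tpm4, in control (red) and cold (blue) libraries. Each symbol shape is 1 replicate number. Troponin points stay within 2 percentage points of 100, whereas Tpm1 spans 96.4 to 105%, Tpm2 93.6 to 102% and Tpm3 90.1 to 102%.

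Across the 8 libraries, log2 TPM of any pair of the 9 lower genes correlated positively (Pearson's r from 0.68 to 0.99 in 36 pairs), and Tpm3 correlated negatively with each of them (r from −0.93 to −0.43 in 9 pairs). These points share libraries and the split between replicates and are given as a description. The 5 genes with the pattern most like the mean of the 7 troponins were Actn3 (r = 0.99), Ryr1 (0.99), Klhl40 (0.99), Jph1 (0.99) and Fbxl22 (0.99), out of 10477 genes searched over 8 libraries. Actn3 encodes the fast-fiber alpha-actinin and Ryr1 the calcium release channel of skeletal muscle. For the mean of the 3 tropomyosins, in which Tpm3 runs against the others, they were Nploc4 (r = 0.98), Palm3 (0.98), Tmem119 (0.98), CUNH21orf91 (0.98) and Mylk4 (0.98). Of these last 5, Mylk4 alone had an edgeR adjusted p under 0.05 with the block (0.000755, and 0.946 without it).

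In the RefSeq annotation of the assembly BCM_Maur_2.0, 3 troponin I genes each lie close to a troponin T gene. Tnnt1 is next to Tnni3, Tnnt2 and Tnni1 have 1 annotated gene between them (Lad1), and Tnnt3 and Tnni2 have 2. Tnnt2 and Tnni1 had like log2 fold changes of −0.73 and −0.69, whereas Tnnt3 and Tnni2 had −0.67 and −0.30. Tnnt1 had −2.20 beside a Tnni3 at 0.14 to 0.74 TPM.

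A list of 26 other genes of the thin filament, or linked to it, was written from general knowledge with earlier results of these data known. Of these, 21 passed the filter, 16 with a negative and 5 with a positive log2 fold change. The median was −0.24 (47.1% of all genes tested were negative). Without the block 0 of the 21 were past both edgeR thresholds on the lower side (background 0.04%), 8 were lower at an unadjusted p under 0.05 (background 4.13%), and Neb, the thin filament length ruler nebulin, had an adjusted p of 0.0454 (log2 fold change −0.53; named after its value was seen). With the block 3 passed both thresholds on the lower side (background 0.808%), as did 3 in DESeq2 (background 0.528%). With the block they were Acta1, Ldb3 and Lmod3. Acta1 and Lmod3 are among the genes that the study singled out on these libraries, so these counts are not independent evidence. The largest changes were those of Acta1, the skeletal alpha-actin (−1.90, edgeR adjusted p = 0.0560), Ldb3 (−1.78), the actin filament nucleator Lmod3 (−1.54), Klhl41 (−0.86), Xirp2 (−0.72) and Tmod1, which caps the pointed end of thin filaments (−0.72). With the block all 6 had an edgeR adjusted p under 0.05, from 9.63e-11 for Acta1 to 0.0215 for Xirp2. The median of the 10 troponins and tropomyosins was −0.71.

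Fiber-type genes other than troponins had mostly negative fold changes on the slow and on the fast side. Of 8 slow-fiber genes 6 were tested, and all 6 had negative log2 fold changes with a median of −1.59. Csrp3 (−2.75) and the calcium-storage gene Casq2 (−2.38) led, at 15.9 ± 11.25 and 16.1 ± 8.89 TPM in control (SD, n = 4 each). Atp2a2, the most abundant of the 6 (219 ± 8.02 TPM in control, SD, n = 4), had −0.09. Whether the slow and fast lists differed was not tested. Among 10 fast-fiber genes 7 were tested and 6 were negative, with a median of −0.68, led by the myosin light chain genes Myl1 (−2.04) and Mylpf (−1.16). Without the block edgeR called 0 of the slow and 0 of the fast genes, although all 6 slow and 5 of the 7 fast genes were lower at an unadjusted p under 0.05 (background 4.13%). With the block edgeR called 4 slow and 2 fast genes lower (background 0.808%), and DESeq2 called 3 and 1 (background 0.528%). In the list of embryonic, perinatal or cardiac genes, 3 of 8 were tested and all 3 were negative, with Myl4 at −2.57 (edgeR adjusted p = 0.0301) and Myh3 at −1.45 (adjusted p = 0.135). Of these 3, edgeR called 1 lower without the block (background 0.04%) and 2 with it (background 0.808%), and DESeq2 called 2 (background 0.528%). The call without the block was lost on leaving out any 1 library except control replicate 3. Myoz2 of the slow, Myl1 of the fast, and Myl4 and Myh3 of the embryonic list were singled out by the study on these libraries. Calls in these lists are therefore not independent evidence. The counts of Myh3, which is also among the myocyte markers, had decimals in all 8 libraries, and those of Myh1, the median gene of the fast list at −0.68, in 7, so the levels of both are uncertain.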

How the data were processed

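Per the labels, poly(A) RNA of 4 control and 4 cold SC samples was sequenced, with paired-end reads according to the study's methods. The submitters' processing notes name HISAT and HISAT2, and the counting program and genome build are not given in the sources used here. The deposited table holds expected counts, estimated by the authors and not normalized, of which at most 3.56% per library are not whole. It also holds TPM values computed by the authors and normalized counts, a signal that the authors scaled by 1 factor per library. All 17590 gene identifiers with values matched RefSeq.

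Expected counts were rounded and tested in edgeR 4.0.16 (R 4.3.3) with filterByExpr and TMM factors, cold against control. SE was obtained from each fold change and its F statistic (|log2 change| / √F). TPM, log2 ratios (pseudocount 0.1) and implied lengths were compared by exact permutation (scipy 1.17.1). Correlations of same-numbered control and cold libraries, as deviations from group means over genes, were 0.61, 0.62, 0.65 and 0.66, between 0.43 and 0.59 for libraries of other numbers within 1 and 2 or within 3 and 4, and −0.61 to −0.55 otherwise. Fits with the number as a block are therefore given beside the unblocked edgeR fit, although the labels do not say what the numbers mark, and the exact permutation tests are unpaired. The fits were tested on simulated data. Counting error alone is small at 16530747 to 18533801 counts per library, except for Tnnt1 and Tnni3.

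The genes, isoform pairs and lists were chosen with earlier results of these data known. Named beside the 10 genes are Tpm4 and Tnni3. From the thin filament list the 6 genes with the largest change are named, and from each other list 2. Also named are the 5 genes most like the troponins and the 5 most like the tropomyosins (mean of at least 1 TPM, no LOC symbol). Alternatives were DESeq2 1.42.0, other normalizations and filters, limma 3.58.1 on log2 TPM (genes reaching 0.1 TPM in 4 or more libraries), the replicate block, and fits on fewer libraries. The implied length was added after the data had been seen.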

Additional observations from a re-analysis of the deposited data

Results flagged for a closer look

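Of 38 groups of 4 libraries tested with Dixon's criterion on the values of the 10 genes, the isoform ratios and the implied lengths of the tropomyosins, 2 held an isolated value, where chance gives 1.9. In the cold group, replicate 4 had a Tpm2 over Tpm1 log2 ratio of −1.55, while the other cold libraries lay between −1.37 and −1.34. In the control group, replicate 4 had an implied Tpm3 transcript length of 102.3% of the control mean, while the other control libraries lay between 99.1 and 99.5%.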

How the results depend on the processing

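The sign of the fold change was the same for all 10 genes in each of 24 alternative fits, negative for 9 genes and positive for Tpm3. Leaving out 1 library moved the log2 fold change of Tnni2 from −0.30 to −0.11 (control replicate 2), −0.19 (cold replicate 3), −0.18 (cold replicate 4) or −0.50 (cold replicate 2) and that of Tpm1 from −0.15 to −0.098 (control replicate 2). Over these fits 170 fold changes kept their side of an adjusted p of 0.05 and 70 passed it where the fit without a block had not. The number of genes lower in the cold, 5 in that fit, was 8 with library totals, 66 with DESeq2, 15 without a filter, 3 with a mean of at least 10 counts in each group, 3 with limma on log2 TPM at a pseudocount of 0.1, 1 or 0.01, 9 without a fold threshold, 101 with the replicate block, 84 with the block in DESeq2, 175 with replicates 1 and 2 only and 27 with replicates 3 and 4 only. Without 1 library it was 0 to 33 (33 without control replicate 3), and with the block and both libraries of a number left out 81, 97, 131 and 114 (numbers 1 to 4). The number higher was 5 with the block, 1 with the block in DESeq2, 8 and 1 on the sides, 0 or 1 without 1 library and 3 to 7 with the block and a number left out. Of the 10 genes, 1 was called lower with DESeq2, with the block in edgeR or DESeq2, and with the block and any number left out, 3 with replicates 1 and 2 only, and 0 without any single library.

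For the ratios and the length that reached an exact permutation p of 0.0286, pairing leaves the mean as it was by construction, and the exact sign-flip test of the replicate block cannot go below 0.125: Tnnt1 over Tnnt3 −1.40, Tpm3 over Tpm1 0.42, Tpm2 over Tpm1 −0.64, and the implied Tpm3 length −0.10 (log2). On expected counts scaled by library, Tpm3 over Tpm1 was 0.29 (exact permutation p = 0.0571). Without 1 library, where p cannot go below 0.0571, these ranged from −1.58 to −1.25, from 0.35 to 0.51, from −0.69 to −0.58 and from −0.12 to −0.082. Tnnc1 over Tnnc2 then ranged from −0.29 to 0.081 (without cold replicate 3) and Tnnt2 over Tnnt3 from −0.14 to 0.041 (without cold replicate 1), both with a change of sign. The TPM differences of Tnnt1, Tnni1, Tnnc2, Tpm2 and Tpm3, also at an exact p of 0.0286, likewise had p = 0.125 in the exact sign-flip test and 0.0571 without any 1 library, the smallest these designs allow, which gives 45 values past the threshold no longer.

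Genes called lower with the block were 3 in the thin filament list (1 with library totals), 4 in the slow, 2 in the fast and 2 in the embryonic list. Without 1 library they were 0 to 2, 0 to 2, 0 to 1 and 0 to 2, and the medians were −0.50 to −0.22 in the thin filament and −0.99 to −0.48 in the fast list. The low counts of Tnnt1 in the cold and the 4 libraries per group limit precision.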
